A study of Mus musculus with 47 samples.

Results

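The subunits of Polycomb repressive complex 2 (PRC2) were followed as a set of 10 genes, Eed, Ezh2, Ezh1, Suz12, Rbbp4, Jarid2, Aebp2, Mtf2, Phf1 and Phf19, in RNA sequencing of sorted medullary thymic epithelial cells (mTECs) of mice. The genes were taken by name, through the Ensembl gene identifiers and their GRCm38 symbols, and not by any measured value. All 10 were found among the 53402 genes that the adult and the neonatal count table share, and all 10 passed the filter on low counts in both tables, among 19310 adult and 20196 neonatal genes tested. The 47 libraries came from C57BL/6 thymus, in which live CD45-negative, EpCAM-positive, Ly51-negative cells were sorted by surface MHC class II into a high (mTEChi) and a low (mTEClo) fraction.

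Adult groups were mTEChi WT (n = 7) and mTEClo WT (n = 8) from mice aged 4 to 5 weeks, and mTEChi AireKO (n = 4) and mTEClo AireKO (n = 4) from male mice aged 5 to 6 weeks. WT libraries were 5 male and 2 female in mTEChi and 3 male and 5 female in mTEClo. Neonatal mTEChi groups were Ctrl (n = 5) and EEDcKO (n = 3) at 1 to 6 days after birth, and AireKO (n = 3) and AireEEDdKO (n = 3) at 4 to 6 days. Neonatal mTEClo groups were Ctrl (n = 3) at 1 to 3 days, EEDcKO (n = 4) at 1 to 6 days and AireEEDdKO (n = 3) at 4 to 6 days. As male, female and pooled libraries, mTEChi Ctrl had 3, 1 and 1 and mTEChi EEDcKO 0, 1 and 2. AireKO and AireEEDdKO of mTEChi each had 2, 0 and 1. In mTEClo, Ctrl had 1, 1 and 1, EEDcKO 0, 1 and 3 and AireEEDdKO 2, 1 and 0. Sex was thus uneven between compared groups and in no fit, and its part in the values was not tested. AireKO mice lack Aire, which drives transcription of tissue-restricted self-antigen genes in mTECs. EEDcKO mice carried floxed Eed and Foxn1-Cre, whose promoter is active in thymic epithelial cells, and AireEEDdKO mice combined both losses. The labels do not give the alleles of Ctrl mice. The study describes the neonatal mTEChi libraries as single mice, although the labels give some of them as pooled from male and female mice, and for the other groups the sources used here do not state the source animals. There, libraries of a group differ in age or sex and so come from more than 1 animal or pool. Libraries with the same labels may still share animals, so that p-values may in part measure technical spread. In bulk samples, fewer cells of a type and less RNA per cell cannot be told apart.

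PRC2 places methyl groups on lysine 27 of histone H3 and thereby keeps genes silent. Its core holds a catalytic subunit, EZH2 or the less active EZH1, together with EED, which reads the mark and stimulates the enzyme, SUZ12, which holds the complex together, and the histone-binding protein RBBP4 or its close relative RBBP7. Accessory subunits define the form called PRC2.1, with one of the Polycomb-like proteins PHF1, MTF2 and PHF19, and the form called PRC2.2, with JARID2 and AEBP2. EZH2 is known to prevail in dividing cells and EZH1 in resting cells.

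Total counts per library ran from 1602125 to 3938588 in the adult table and from 1578579 to 4817418 in the neonatal table. The epithelial genes Epcam, Krt5 and Krt8 had counts in every library. Aire was 746 to 914 CPM (depth-scaled counts, with library sizes adjusted by the trimmed mean of M values) in adult mTEChi WT against 16.6 to 38.1 in mTEChi AireKO, and 460.1 to 801 in neonatal mTEChi Ctrl against 44.4 to 114 in AireKO. One limit touches every adult value with AireKO. All 4 mTEChi AireKO libraries and replicates 3 and 4 of mTEClo AireKO had 0 mitochondrial counts, which allows a share of up to 0.000119% of counts in the shallowest of them, while the other 17 adult libraries had 6178 to 10339 and all 24 neonatal libraries 6791 to 10410. Within adult mTEChi, genotype and this kind of library cannot be told apart. Adult AireKO results are therefore given with and without the libraries concerned where the design allows it.

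The promoters of Ezh2 and Suz12 are shown as examples. These genes were lower together with Eed in mTEChi of AireEEDdKO mice than of AireKO mice. Aebp2 and Rbbp4 were lower there too, and their promoters are not shown. The stretches come from RefSeq (GRCm38.p6), run 5′ to 3′ and leave out annotated exons. For Ezh2 the stretch is chr6:47595059-47595183 on the minus strand, 153 to 29 bases before the RefSeq transcription start used, and for Suz12 it is chr11:79992856-79993105 on the plus strand, the 250 bases before the start. The Ezh2 stretch lies inside the gene span given below, which begins further upstream than this RefSeq start. Capitals mark matches, on either strand, to CCAAT, the box bound by NF-Y, and to the letters searched for E2F, the factor family of cell cycle genes: TTTCGCGC, TTTGGCGC, TTTCCCGC and TTTGCCGC.
Ezh2: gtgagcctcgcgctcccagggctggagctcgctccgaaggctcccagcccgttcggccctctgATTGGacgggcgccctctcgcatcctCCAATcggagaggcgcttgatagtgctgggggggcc
Suz12: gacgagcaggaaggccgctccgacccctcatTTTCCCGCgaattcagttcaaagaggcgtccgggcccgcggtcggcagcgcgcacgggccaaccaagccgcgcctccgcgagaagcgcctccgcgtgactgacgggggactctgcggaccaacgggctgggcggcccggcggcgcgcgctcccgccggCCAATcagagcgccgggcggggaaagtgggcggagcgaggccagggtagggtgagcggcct
Over windows of 300 bases (250 before and 50 after the start), an E2F match was found in 2.26% of 32851 promoters and in 3 of the 10 PRC2 genes: Suz12 (219 bases before the start), Phf19 (208 before) and Ezh2 (TTTGGCGC at base 4 after the start, outside the stretch shown). CCAAT was found in 37.4% of promoters and in 7 of the 10 genes. The 10 genes have 14 promoter entries, and a gene was counted with a match in any of its entries. The counts of genes and the shares of promoters are thus in unlike units. The letters searched do not overlap each other in the stretches shown, and a match is no evidence of binding.

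The core genes are Eed (chromosome 7, 89954654 to 89980983, minus strand, in GRCm38 as are all coordinates here), Ezh2 (chromosome 6, 47530139 to 47595341, minus strand), Ezh1 (chromosome 11, 101191115 to 101226463, minus strand), Suz12 (chromosome 11, 79993106 to 80034123, plus strand) and Rbbp4 (chromosome 4, 129307100 to 129335370, minus strand). The PRC2.2 genes are Jarid2 (chromosome 13, 44729474 to 44921643, plus strand) and Aebp2 (chromosome 6, 140622663 to 140678472, plus strand). The PRC2.1 genes are Mtf2 (chromosome 5, 108065674 to 108109004, plus strand), Phf1 (chromosome 17, 26933052 to 26937908, plus strand) and Phf19 (chromosome 2, 34893757 to 34914026, minus strand). All are protein-coding. The libraries do not mark strand, so reads over exons shared with a neighbor cannot be told apart. Shared bases were 39.3% of the exon bases of Phf1 (with Cuta and AC144621.3), 18.1% of Rbbp4 (with Sync and Gm26722), 6.93% of Mtf2 (with Tmed5), 6.82% of Eed (with E230029C05Rik) and under 4% in the other genes. Whether such reads were counted for either gene is not stated, and the shared bases remain in the exon lengths used below. Values of Phf1, and less so of Rbbp4, are uncertain on that account, and their levels per length may be too low.

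Relative to exon length, the PRC2.2 genes were the most abundant subunits in control mTEChi and the Polycomb-like genes Phf19 and Phf1 the least. In adult mTEChi WT, in CPM per kb of exon, Aebp2 was 55.8 ± 4.82 (SD, n = 7) and Jarid2 32.3 ± 1.50, followed by Rbbp4 at 18.0 ± 2.33 and Suz12 at 17.3 ± 2.19, which lay within 1 SD of each other. Ezh1 (11.9 ± 0.632), Mtf2 (10.7 ± 1.76), Ezh2 (9.44 ± 1.17) and Eed (9.38 ± 1.89) came next, each within 1 SD of its neighbor in the order. Phf19 (2.32 ± 0.581) and Phf1 (1.83 ± 0.645) came last, also within 1 SD of each other. The top of the order was flatter in adult mTEClo WT, where Jarid2 (20.4 ± 0.649, SD, n = 8), Rbbp4 (19.6 ± 1.76), Aebp2 (18.9 ± 0.964) and Ezh1 (18.6 ± 0.645) each lay within 1 SD of the next, with Ezh2 at 7.26 ± 0.660.

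Neonatal control cells had a like order. In neonatal mTEChi Ctrl (n = 5), Aebp2 was 42.4 ± 7.29 and Jarid2 34.3 ± 1.81 CPM per kb, Suz12 (21.8 ± 3.93) and Rbbp4 (20.4 ± 1.05) did not differ beyond 1 SD, nor did Mtf2 (12.6 ± 1.48) and Ezh2 (11.9 ± 1.45), and Ezh1 (10.0 ± 1.12), Eed (7.54 ± 2.05), Phf19 (3.28 ± 0.353) and Phf1 (0.676 ± 0.169) followed. In mTEClo Ctrl (n = 3) the order began with Aebp2 (30.8 ± 0.674) and Jarid2 (27.1 ± 3.89), within 1 SD of each other, and ended with Phf1 (0.999 ± 0.474). Ezh2 was above Ezh1 in neonatal mTEChi Ctrl and below it in neonatal mTEClo Ctrl, in CPM per kb of all exons. These orders depend on the length used, here that of all exons. The longest transcript has 2787 of 6678 exon bases in Ezh2 and 4663 of 8744 in Rbbp4, but 8353 of 9715 in Jarid2. By that length, Jarid2 and Aebp2 would both fall below Rbbp4 and Ezh1 in adult mTEClo WT. In neonatal mTEClo Ctrl, Jarid2 would fall below Rbbp4. The ratio of Ezh2 to Ezh1 is given below with both lengths.

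Loss of EED from thymic epithelium addressed what happens to the other subunits when a core subunit is removed. In neonatal mTEChi, EEDcKO had less Eed, Ezh2, Aebp2, Rbbp4 and Mtf2 than Ctrl and more Phf1, while Ezh1, Suz12, Jarid2 and Phf19 did not pass the test. These were 6 of the 10 genes, the deleted Eed included, against 32.6% of all genes tested (1 higher against 19.1% and 5 lower against 13.6%). In neonatal mTEClo, Eed, Aebp2, Jarid2 and Rbbp4 were lower and Phf1 and Phf19 higher, 6 of 10 against 30.7% (2 higher against 16.8% and 4 lower against 13.9%). In mTEChi without Aire, where AireEEDdKO was set against AireKO, Eed, Ezh2, Aebp2, Suz12 and Rbbp4 were lower and none was higher, 5 of 10 against 16.8% (0 higher against 9.8% and 5 lower against 7.03%). All calls rest on the quasi-likelihood F test of edgeR, with p adjusted by the Benjamini-Hochberg method over all genes tested at an adjusted p under 0.05, with no minimum fold, and log2 fold changes are EED-deficient minus EED-sufficient. Here and below, overlap of libraries between groups only describes the values. The share of all genes without overlap was not counted between genotypes or fractions, so a lack of overlap does not set these genes apart.

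Eed, the deleted gene, was 38.5, 35.5, 26.7, 23.3 and 20.2 CPM in the mTEChi Ctrl libraries and 19.7, 10.6 and 13.7 in EEDcKO. It was 34.7, 47.8 and 35.0 in mTEChi AireKO and 16.9, 11.5 and 12.1 in AireEEDdKO. In mTEClo it was 23.1, 23.3 and 25.7 in Ctrl, 15.7, 14.3, 14.0 and 16.3 in EEDcKO and 15.3, 14.9 and 14.9 in AireEEDdKO. Every EED-deficient library lay below every EED-sufficient library of the same fraction. Eed stood at 50.0% (95% confidence interval 37.1 to 67.3) of Ctrl in mTEChi EEDcKO, at 62.8% (46.7 to 84.6) in mTEClo EEDcKO and at 34.4% (24.6 to 48.2) of AireKO in mTEChi AireEEDdKO. Gene counts sum all exons, deleted or not, so that these shares are not shares of intact transcripts. The mTEClo call was narrow, with -0.63, adjusted p = 0.053 without EEDcKO replicate 3, against -0.67 (adjusted p = 0.023, edgeR) with it.

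Ezh2, the catalytic subunit of dividing cells, was lower in mTEChi of EEDcKO mice and did not pass in their mTEClo. It was 93.2, 86.5, 73.7, 73.6 and 71.1 CPM in mTEChi Ctrl and 47.3, 42.7 and 35.2 in EEDcKO, with no overlap. It was 102, 134 and 117 in AireKO and 38.5, 41.2 and 48.4 in AireEEDdKO, again apart. Its difference on the log2 scale was -0.93 (SE 0.16, adjusted p = 0.00012) on the Aire-sufficient background and -1.45 (SE 0.17, adjusted p = 5.7e-06) on the Aire-deficient one, both from edgeR. In mTEClo, Ezh2 was 63.0, 53.2 and 63.1 in Ctrl and 58.8, 51.0, 38.7 and 55.8 in EEDcKO, which overlapped, with a log2 fold change of -0.23 (SE 0.16, adjusted p = 0.29). In mTEClo AireEEDdKO it was 31.9, 44.0 and 43.2, below every Ctrl library (-0.58, SE 0.17, adjusted p = 0.0094, and -0.45, adjusted p = 0.063 without AireEEDdKO replicate 1). The difference of the EEDcKO effect between the fractions, tested as an interaction, was -0.70 (SE 0.22, adjusted p = 0.11) in edgeR and did not pass. Without mTEClo EEDcKO replicate 3 it did (-0.82, adjusted p = 0.037).

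Ezh1, the other catalytic subunit, passed in none of these comparisons. It was 66.4, 64.7, 79.4, 82.5 and 79.9 CPM in mTEChi Ctrl and 78.6, 90.5 and 64.3 in EEDcKO, and 85.1, 94.3 and 72.0 in mTEClo Ctrl and 104, 80.5, 145 and 109 in EEDcKO, overlapping in both fractions. The log2 fold changes were 0.054 in mTEChi (95% confidence interval -0.27 to 0.38), 0.39 in mTEClo (0.055 to 0.72, adjusted p = 0.087 in edgeR) and -0.017 in mTEChi AireEEDdKO against AireKO (-0.39 to 0.36). In mTEClo, Ezh1 passed without EEDcKO replicate 2 (0.51, adjusted p = 0.024).

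Among the other core genes, Suz12 was 109.9, 139, 87.3, 96.1 and 108 CPM in mTEChi Ctrl and 96.4, 88.3 and 99.2 in EEDcKO, which overlapped (-0.18, SE 0.13, adjusted p = 0.3, edgeR). On the Aire-deficient background it was 132, 139 and 125 in AireKO and 79.4, 80.8 and 108 in AireEEDdKO, without overlap, and fell by 0.55 (SE 0.15, adjusted p = 0.012) on the log2 scale. That call was lost without any of 3 of the 6 libraries, with -0.52, adjusted p = 0.055 without AireKO replicate 2, -0.48, adjusted p = 0.064 without AireEEDdKO replicate 1 and -0.49, adjusted p = 0.059 without AireEEDdKO replicate 2. Rbbp4, the histone-binding subunit that PRC2 shares with other chromatin complexes, was 176, 191, 181, 178 and 165 in mTEChi Ctrl and 122, 142 and 145 in EEDcKO, and 198, 191 and 189 in mTEClo Ctrl and 157, 140.0, 129 and 155 in EEDcKO. It was lower in every EEDcKO library than in every Ctrl library of the fraction. Its log2 fold change was -0.38 in mTEChi, -0.41 in mTEClo and -0.47 in AireEEDdKO with AireKO as control, where adjusted p was 0.0068, 0.005 and 0.0058. Sync, which shares exon bases with Rbbp4, moved the other way in mTEChi EEDcKO (0.96, adjusted p = 0.0059).

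The PRC2.2 genes differed from each other. Aebp2, which binds nucleosomes, was 498, 495, 369, 355 and 373 CPM in mTEChi Ctrl and 319, 236 and 240.5 in EEDcKO. It was 673, 762 and 524 in AireKO and 300.1, 304 and 262 in AireEEDdKO, and 303, 309.6 and 296 in mTEClo Ctrl and 196, 192, 196 and 210.0 in EEDcKO. No EED-deficient group overlapped its control. The log2 fold changes in edgeR were -0.66 (SE 0.14, adjusted p = 0.00082) in mTEChi, -0.61 (SE 0.14, adjusted p = 0.0019) in mTEClo and -1.18 (SE 0.15, adjusted p = 1.1e-05) without Aire. Jarid2, which guides PRC2 to its targets, was 314, 316, 342, 343 and 353 CPM in mTEChi Ctrl and 316, 344 and 307 in EEDcKO, overlapping, with a log2 fold change of -0.051 (95% confidence interval -0.31 to 0.21). Against AireKO, Jarid2 of mTEChi AireEEDdKO was -0.14 (-0.43 to 0.15). In mTEClo it was 289, 281 and 219.9 in Ctrl and 176, 169, 214 and 232 in EEDcKO, which overlapped, with a log2 fold change of -0.41 (SE 0.14, adjusted p = 0.028). The adjusted p was 0.059 to 0.085 without any of Ctrl replicates 1 and 2 and EEDcKO replicates 1 and 2 (log2 fold changes -0.41, -0.43, -0.36 and -0.35).

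The Polycomb-like genes of PRC2.1 differed from each other. Mtf2 was 83.7, 76.8, 67.4, 69.7 and 62.0 CPM in mTEChi Ctrl and 57.1, 50.3 and 58.6 in EEDcKO, with a log2 fold change of -0.37 (SE 0.14, adjusted p = 0.038) in edgeR. Every EEDcKO library was below every Ctrl library, but the call was lost with no filter on low counts (-0.37, adjusted p = 0.11) and without any of 5 of the 8 libraries: Ctrl replicates 1 (-0.31, adjusted p = 0.093) and 2 (-0.35, adjusted p = 0.069), and EEDcKO replicates 1 (-0.38, adjusted p = 0.06), 2 (-0.31, adjusted p = 0.16) and 3 (-0.41, adjusted p = 0.063). Phf1 was 1.67, 2.29, 1.91, 2.88 and 3.02 CPM in mTEChi Ctrl and 4.30, 5.21 and 6.55 in EEDcKO, and 3.69, 1.74 and 5.02 in mTEClo Ctrl and 9.68, 10.3, 12.3 and 10.0 in EEDcKO. It was higher in every EEDcKO library, with log2 fold changes of 1.15 (SE 0.30, adjusted p = 0.0056) and 1.65 (SE 0.31, adjusted p = 0.00031). These are low counts, and Cuta on the other strand was also higher in mTEChi EEDcKO (0.56, adjusted p = 0.023 in edgeR). Phf19 was 15.1, 14.3, 18.3, 18.1 and 17.0 CPM in mTEChi Ctrl and 10.4, 23.0 and 14.7 in EEDcKO, where the 3 libraries spread from below to above all controls (-0.0041, 95% confidence interval -0.42 to 0.41). In mTEClo it was 18.1, 14.3 and 14.0 in Ctrl and 21.0, 33.9, 20.9 and 24.5 in EEDcKO, without overlap (0.68, SE 0.22, adjusted p = 0.02). That call was lost with no filter on low counts (0.65, adjusted p = 0.084) and without Ctrl replicate 2 (0.56, adjusted p = 0.12), Ctrl replicate 3 (0.55, adjusted p = 0.094) or EEDcKO replicate 2 (0.51, adjusted p = 0.077).

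**Figure D1:**
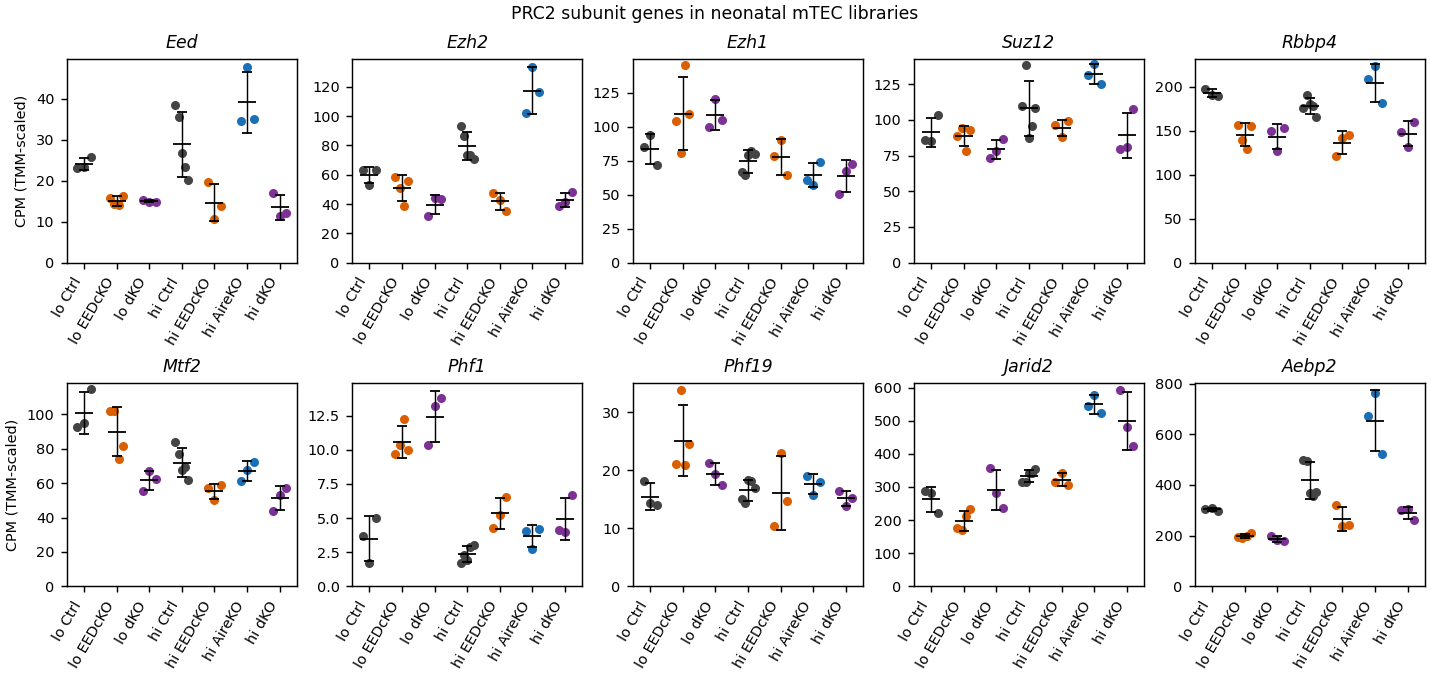
Expression of the 10 PRC2 genes in each neonatal library, 1 panel per gene, in CPM on a linear axis, with groups on the x axis, 1 point per library, a bar at the mean and whiskers of 1 SD (hi is mTEChi, lo is mTEClo, dKO is AireEEDdKO). Eed, Aebp2 and, in mTEChi, Ezh2 sit lower in the EED-deficient groups, while Ezh1 overlaps between Ctrl and EEDcKO.

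The Aire-deficient mTEClo cells were compared with Ctrl only in the presence of EED loss. In mTEClo AireEEDdKO against Ctrl, 6 of 10 genes passed against 38.7% of all genes (1 higher against 20.6% and 5 lower against 18.1%), with Phf1 higher (1.89) and Eed (-0.67), Ezh2 (-0.58), Aebp2 (-0.71), Mtf2 (-0.71) and Rbbp4 (-0.43) lower. These groups shared no age, the Ctrl libraries being from days 1 to 3 and the AireEEDdKO libraries from days 4 to 6, so that between these groups alone age and genotype cannot be told apart. With age as a factor, estimated from all neonatal groups, the same 6 genes passed, and Eed moved to -1.07, adjusted p = 0.0049. The Eed call was lost without a filter on low counts (-0.63, adjusted p = 0.088), as was that of Rbbp4 (-0.39, adjusted p = 0.051), and without Ctrl replicate 3 (-0.65, adjusted p = 0.064), AireEEDdKO replicate 1 (-0.68, adjusted p = 0.055) or AireEEDdKO replicate 3 (-0.66, adjusted p = 0.066). Against EEDcKO of the same fraction, AireEEDdKO differed in Jarid2 (0.56, SE 0.14, adjusted p = 0.014) and Mtf2 (-0.54, SE 0.14, adjusted p = 0.016), 2 of 10 against 8.02% (1 higher against 4.96% and 1 lower against 3.06%), both from edgeR. Jarid2 was 357, 281 and 237 CPM in AireEEDdKO and Mtf2 55.7, 67.0 and 62.2, against 102, 102, 74.2 and 81.3 for Mtf2 in EEDcKO, and neither overlapped EEDcKO. EEDcKO libraries were from days 1 to 6 and AireEEDdKO libraries from days 4 to 6, and with age as a factor neither gene passed (Jarid2 0.50, adjusted p = 0.053 and Mtf2 -0.49, adjusted p = 0.06). The Mtf2 call was also lost without a filter on low counts (-0.46, adjusted p = 0.086). Both calls were lost without EEDcKO replicate 1 or 2 or AireEEDdKO replicate 1, and that of Mtf2 also without AireEEDdKO replicate 3, with log2 fold changes of 0.39 to 0.75 for Jarid2 and -0.62 to -0.47 for Mtf2 over all such fits and adjusted p up to 0.17 and 0.13. Ezh2 passed as lower without EEDcKO replicate 3 (-0.47, adjusted p = 0.048). In mTEChi, only Jarid2 of the 10 genes differed between AireEEDdKO (594, 480.1 and 423 CPM) and EEDcKO (316, 344 and 307), with 0.63 (SE 0.15, adjusted p = 0.0045), 1 of 10 against 22.5% of all genes (1 higher against 10.6% and 0 lower against 11.9%).

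Other PRC2-associated and opposing genes, 15 on the list and 14 tested, moved in both directions with EED loss: 3 were higher and 6 lower in mTEChi EEDcKO, 3 higher and 5 lower in mTEClo EEDcKO, and 1 higher and 5 lower in mTEChi AireEEDdKO against AireKO, beside 32.6%, 30.7% and 16.8% of all genes passing in either direction. Epop, a PRC2.1 partner that links PRC2 to elongin, was higher in all 3 comparisons (1.72, SE 0.37, adjusted p = 0.0013, 3.14, SE 0.54, adjusted p = 0.00015 and 2.72, SE 0.54, adjusted p = 0.0012, all edgeR). Rbbp7, the relative of Rbbp4, was lower in both EEDcKO comparisons (-0.92 and -0.69) and in AireEEDdKO against AireKO (adjusted p = 5.6e-05, edgeR). Nsd2, a methyltransferase of the opposing lysine 36 mark, was lower in all 3 (-0.93, -0.75 and -1.04). Kdm6b, a demethylase that removes the PRC2 mark, was higher in both EEDcKO comparisons (0.87 in mTEChi and 1.07 in mTEClo), with 0.43 (adjusted p = 0.079) without Aire. Ezhip, an inhibitor of PRC2, was too low to be tested.

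Cell division genes moved with these changes. Of 16 such genes, 7 were lower in mTEChi EEDcKO (median log2 fold change -0.60, against -0.0012 over all genes), 11 in mTEClo EEDcKO (-0.81), 13 in mTEChi AireEEDdKO against AireKO (-1.82) and 15 in mTEClo AireEEDdKO against Ctrl (-1.61), and none was higher. Of all genes tested, 13.6%, 13.9%, 7.03% and 18.1% were lower in these comparisons, in that order. Mki67 changed by -0.97 (adjusted p = 0.006, edgeR) and Top2a by -1.41 (adjusted p = 0.00057) in mTEChi EEDcKO, and by -2.13 and -2.21 (adjusted p = 2.3e-05 and 3.3e-05) in mTEChi AireEEDdKO. Summed over the 16 genes, mTEChi Ctrl libraries had 1368 to 1791 CPM and mTEChi EEDcKO libraries 523 to 1160.0. The sum ran from 1940.0 to 2195 without Aire and from 339 to 856 without both Aire and EED. Among mTEClo libraries it ran from 1785 to 1969.8 for Ctrl, from 725 to 1397 for EEDcKO and from 567 to 580.2 for AireEEDdKO. The part of these genes in the PRC2 values was not tested.

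Markers of other cell types also moved. Of all genes tested, 19.1% were higher and 13.6% lower in mTEChi EEDcKO, and 16.8% and 13.9% in mTEClo EEDcKO. Cortical epithelial genes (7 markers) summed to 1988 to 3032 CPM in mTEClo Ctrl and 279 to 1008 in EEDcKO, and 6 of 7 were lower. Mesenchymal genes (6 markers) summed to 319 to 332 in mTEClo Ctrl and 528 to 764 in EEDcKO, with 4 higher and 2 lower, and to 450.1 to 632 in mTEChi Ctrl and 720.0 to 1051 in EEDcKO, with 3 higher. Thymocyte genes (9 markers, 8 tested) summed to 106 to 141 in mTEChi Ctrl and 109.8 to 174 in EEDcKO (1 higher, 1 lower), myeloid genes (6) to 273 to 302 and 178 to 313 (3 lower), and endothelial genes (4) to 42.4 to 66.3 and 30.6 to 34.7 (2 lower). No marker of these lists was at 0 in every library of neonatal Ctrl or EEDcKO. Cdh5 was at 0 in mTEClo AireEEDdKO and Pdgfra in mTEChi AireKO. Their part in the PRC2 values was not tested.

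Loss of Aire in neonatal mTEChi was followed by higher levels of Jarid2, Aebp2 and Ezh2, 3 of the 10 genes against 28.8% of all genes (3 higher against 13.3% and 0 lower against 15.5%), a share like that of genes at large. Jarid2 was 314, 316, 342, 343 and 353 CPM in Ctrl and 546, 579 and 523 in AireKO, 0.72 (SE 0.13, adjusted p = 0.00038) on the log2 scale in edgeR. Aebp2 was 673, 762 and 524 CPM in AireKO against 498, 495, 369, 355 and 373 in Ctrl (0.64, SE 0.13, adjusted p = 9e-04), and Ezh2 102, 134 and 117 against 93.2, 86.5, 73.7, 73.6 and 71.1 (0.57, SE 0.15, adjusted p = 0.0058). None of the 3 overlapped, though the share of all genes without overlap was not counted. The Ezh2 call was lost with library size alone as the scaling (0.36, adjusted p = 0.09) and without AireKO replicate 2 (0.42, adjusted p = 0.081 without it). Eed had a log2 fold change of 0.46 (SE 0.20, adjusted p = 0.09) and Suz12 of 0.30 (SE 0.13, adjusted p = 0.093), and neither passed, although Suz12 did without Ctrl replicate 2 (0.40, adjusted p = 0.018).

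Several of these genes split by age inside the Ctrl group, where age went with depth and cannot be told apart from it. Total counts were 1726637 and 1676830 in the Ctrl libraries of day 6 and 3418616 to 4025158 in those of days 1 to 3. The Ctrl libraries of day 6 (replicates 1 and 2) had Eed at 38.5 and 35.5 CPM, Ezh2 at 93.2 and 86.5 and Aebp2 at 498 and 495, each above the Ctrl libraries of days 1 to 3 (at most 26.7, 73.7 and 373). Ezh1 went the other way, with 66.4 and 64.7 CPM at day 6 and 79.4 to 82.5 at days 1 to 3. The AireKO libraries were from days 4 and 6. The fits with age as a factor hold no term for depth. With age as a factor in the fit, the AireKO minus Ctrl log2 fold changes of Jarid2, Aebp2 and Ezh2 were 0.64, adjusted p = 0.0082, 0.54, adjusted p = 0.0044 and 0.55, adjusted p = 0.036, and that of Eed was 0.26, adjusted p = 0.42. With age as a factor, no call of a PRC2 gene was lost in the comparisons of EEDcKO with Ctrl or of AireEEDdKO with AireKO. The interaction of Aire and EED loss passed in 0 of the 10 genes, against 1.57% of all genes (0 higher against 0.862% and 0 lower against 0.713%), with Eed at -0.54 (SE 0.33, adjusted p = 0.44) and Ezh2 at -0.52 (SE 0.23, adjusted p = 0.26) in edgeR. The EED by fraction interaction passed in 0 against 1.98% (0 higher against 0.886% and 0 lower against 1.09%). DESeq2 also called 0 in each. At an unadjusted p under 0.05, 2 and 2 of the 10 genes passed in edgeR. The share of all genes at that threshold was not counted, so these counts do not set the 10 genes apart.

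In adult mTEChi, AireKO libraries had more Phf1, Phf19, Aebp2 and Jarid2 than WT libraries and less Mtf2 and Rbbp4, 6 of 10 genes against 54.5% of all genes (4 higher against 24.5% and 2 lower against 30.1%), a share near that of genes at large. All these AireKO libraries lacked mitochondrial counts and no WT library did. Phf19 was 8.75 to 16.3 (median 10.9, n = 7) CPM in WT and 24.0, 28.4, 20.3 and 25.6 in AireKO, without overlap, 1.04 (SE 0.20, adjusted p = 7.1e-05) on the log2 scale in edgeR. Mtf2 was 48.4 to 74.4 (median 60.5, n = 7) in WT and 21.4, 32.0, 42.9 and 37.3 in AireKO, also without overlap (-0.84, SE 0.17, adjusted p = 0.00011). Jarid2 was 299 to 340.0 (median 315, n = 7) in WT and 434, 415, 366 and 363 in AireKO (0.33, SE 0.081, adjusted p = 0.0012), and Aebp2 502 to 634 (median 538, n = 7) and 655, 662, 779 and 762 (0.38, SE 0.078, adjusted p = 0.00018), both without overlap.

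Phf1 was 3.82 to 9.58 (median 5.46, n = 7) CPM in WT mTEChi and 27.0, 23.3, 21.3 and 20.7 in AireKO (1.80, SE 0.27, adjusted p = 2.1e-06), and Rbbp4 128 to 182 (median 153, n = 7) and 102, 114, 118 and 116 (-0.48, SE 0.14, adjusted p = 0.0066), both from edgeR. The core genes Ezh2 (52.6 to 73.1, median 62.0, n = 7 in WT, 57.0, 59.6, 63.2 and 56.0 in AireKO, -0.092, SE 0.10, adjusted p = 0.47), Eed (23.7 to 44.9, median 38.1, n = 7 and 24.8, 26.5, 29.6 and 30.0, -0.36, SE 0.16, adjusted p = 0.056), Suz12 (-0.25, SE 0.11, adjusted p = 0.063) and Ezh1 (0.15, SE 0.074, adjusted p = 0.086) did not pass. The result for Eed depended on the setting. It passed with RLE size factors (-0.36, adjusted p = 0.047), library size alone (-0.47, adjusted p = 0.017), a stricter filter (-0.41, adjusted p = 0.03), the replicate number as a block (-0.40, adjusted p = 0.044), age as a factor (-0.54, adjusted p = 0.0066) and DESeq2 (-0.36, adjusted p = 0.047). Suz12 passed with library size alone, the stricter filter, the block and age as a factor (-0.37, adjusted p = 0.0084 in the last). Rbbp4 no longer passed with age as a factor (-0.23, adjusted p = 0.18), WT mice being 4 to 5 and AireKO mice 5 to 6 weeks old. Every adult library of 6 weeks lacked mitochondrial counts and every one of 4 weeks was WT. The adult fits with age as a factor may thus carry the kind of library too and do not single out age. Single libraries also decided some of these. Without WT replicate 7, Eed (-0.44, adjusted p = 0.013) and Suz12 (-0.30, adjusted p = 0.024) passed, as they did without WT replicate 6 (-0.41, adjusted p = 0.034 and -0.29, adjusted p = 0.033). Ezh1 passed without WT replicate 3 (0.19, adjusted p = 0.042) or AireKO replicate 1 (0.25, adjusted p = 0.011).

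Within mTEClo AireKO, libraries of both kinds exist, 2 with and 2 without mitochondrial counts, and 9 of the 10 genes did not overlap between them, against 57% of all genes tested. In this group the kind of library went with age and depth, which cannot be told apart here. The libraries with mitochondrial counts were from 5 weeks, with totals of 1639231 to 1883769, and those without from 6 weeks, with totals of 3272356 to 3938588. Phf1 was 9.81, 7.47, 29.4 and 24.5 CPM, the last 2 being the libraries without. Rbbp4 was 185, 203, 113 and 95.4, Phf19 12.0, 9.33, 5.40 and 4.66, Eed 20.7, 21.8, 28.8 and 36.1, Mtf2 55.1, 76.5, 86.1 and 105 and Jarid2 265, 244, 185 and 195. As log2 of the mean without over the mean with, Phf1 was 1.64, Eed 0.61, Mtf2 0.54, Ezh1 0.14, Aebp2 -0.26, Ezh2 -0.27, Jarid2 -0.42, Rbbp4 -0.90 and Phf19 -1.08, and the exception, Suz12, overlapped at 0.26. A term for the kind of library, added after the data were seen, is estimated from these mTEClo libraries alone and so carries their age and depth too. It changed the mTEChi AireKO minus WT log2 fold changes of Phf1 to 0.17 (adjusted p = 0.77) and of Rbbp4 to 0.42 (adjusted p = 0.059), a change of sign. With the same term, Phf19 was 2.13 (adjusted p = 0.00013), Mtf2 -1.38 (adjusted p = 0.00018), Jarid2 0.75 (adjusted p = 2.6e-05) and Aebp2 0.64 (adjusted p = 0.00073), in the direction of the fit without it. Eed (-0.97, adjusted p = 0.0078) and Suz12 (-0.52, adjusted p = 0.048) passed in addition.

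In adult mTEClo, AireKO had less Ezh2 and more Phf1 than WT, 2 of 10 genes against 25.1% of all genes (1 higher against 14.7% and 1 lower against 10.3%). Ezh2 was 42.7 to 54.9 (median 50.0, n = 8) CPM in WT and 36.0, 42.3, 32.4 and 32.6 in AireKO, with no AireKO library inside the WT range (-0.46, SE 0.11, adjusted p = 0.0026, edgeR). With the 2 libraries that have mitochondrial counts alone, Ezh2 was -0.33 (adjusted p = 0.12) and no longer passed, and Phf1 turned from 0.69 to -0.46 (adjusted p = 0.31). Eed (-0.77, adjusted p = 0.0098), Jarid2 (0.35, adjusted p = 0.002), Aebp2 (0.31, adjusted p = 0.016) and Mtf2 (-0.51, adjusted p = 0.023) passed. With age as a factor, which may carry the kind of library here too, Phf1 no longer passed (0.22, adjusted p = 0.68). In that fit Eed (-0.55, adjusted p = 0.033), Jarid2 (0.32, adjusted p = 0.0026) and Aebp2 (0.27, adjusted p = 0.035) did. With the kind of library as a term, Ezh2 no longer passed (-0.31, adjusted p = 0.12), and Eed (-0.76, adjusted p = 0.0094), Jarid2 (0.37, adjusted p = 0.0021) and Aebp2 (0.32, adjusted p = 0.015) did. The Phf1 call (adjusted p = 0.038) was also lost in DESeq2 (0.64, adjusted p = 0.06), with the replicate number as a block (0.65, adjusted p = 0.11) and without any of 7 single libraries, with log2 fold changes of 0.34 to 0.89 over all such fits, the lowest without AireKO replicate 3 (0.34, adjusted p = 0.38), and with 0.49, adjusted p = 0.2 without AireKO replicate 4. The other 5 were WT replicates 1, 4, 5, 7 and 8, with adjusted p from 0.052 to 0.081. Eed passed without AireKO replicate 4 (-0.59, adjusted p = 0.01) or WT replicate 1 (-0.41, adjusted p = 0.05), and Rbbp4 without AireKO replicate 2 (-0.41, adjusted p = 0.028).

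Markers of other cells moved in the adult comparisons too. Of all genes tested, 24.5% were higher and 30.1% lower in mTEChi AireKO, and 14.7% and 10.3% in mTEClo AireKO. In mTEChi AireKO against WT, 5 of the 7 thymocyte genes tested and 4 of 6 myeloid genes were lower and 1 myeloid gene higher, with summed CPM of 68.5 to 109 against 111 to 136 for thymocyte and 309.8 to 355 against 269 to 323 for myeloid genes. In mTEClo AireKO all 7 cortical epithelial genes were higher (418 to 628 CPM against 246 to 308 in WT). Ptcra and Cdh5 were at 0 in every mTEClo AireKO library. Of the 7 cortical epithelial genes, 3 were higher and 3 lower in mTEChi AireKO, with sums of 817 to 910.5 CPM against 607 to 669 in WT. Of the 16 cell division genes, 5 were lower in mTEChi AireKO, beside 30.1% of all genes, with sums of 326 to 643 CPM against 666 to 1016 in WT. In mTEClo AireKO 1 was lower, with sums of 113 to 688 against 268 to 447. Their part in the PRC2 values was not tested.

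**Figure D2:**
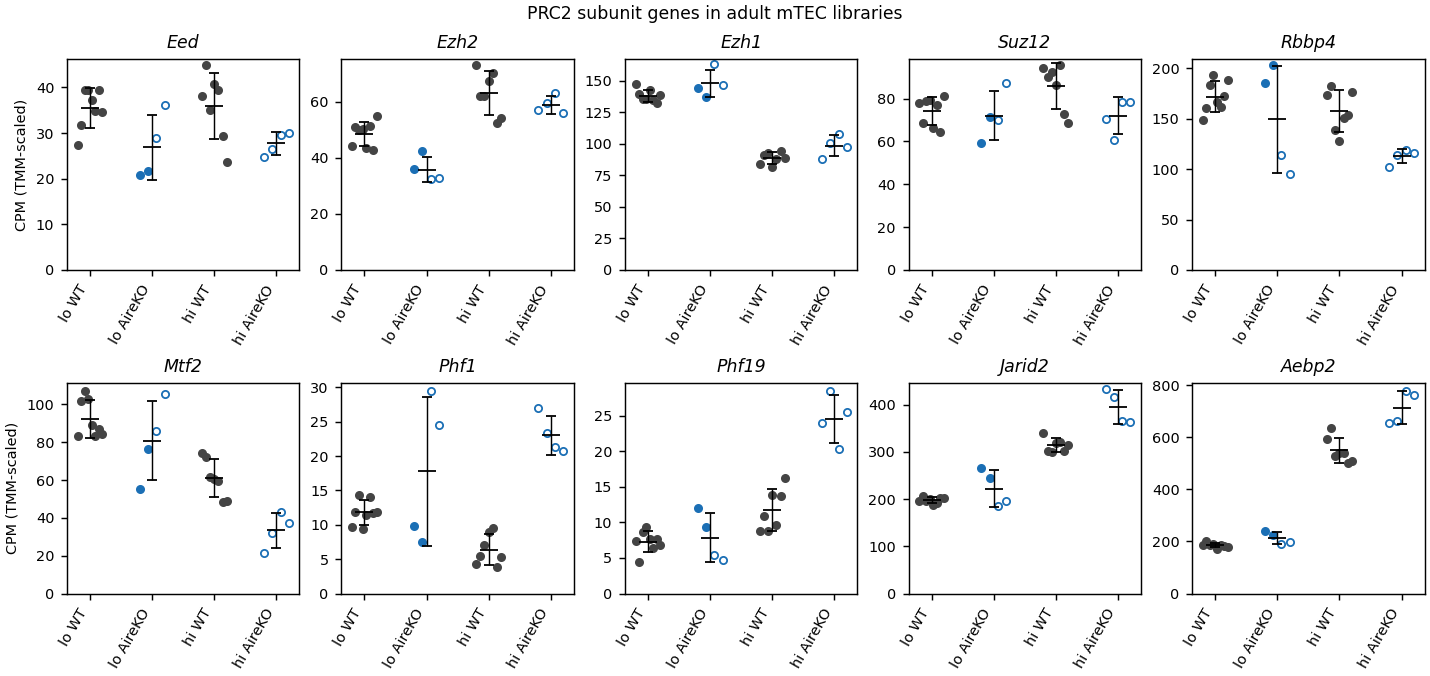
Expression of the 10 PRC2 genes in each adult library, 1 panel per gene, in CPM on a linear axis, with groups on the x axis, 1 point per library, a bar at the mean, whiskers of 1 SD (hi is mTEChi, lo is mTEClo) and open symbols for libraries without mitochondrial counts. Aebp2 and Jarid2 sit higher in mTEChi than in mTEClo in both genotypes, and the open symbols of mTEClo AireKO lie apart from the filled ones for Phf1 and Rbbp4.

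The maturation of mTECs was read from mTEChi against mTEClo. In adult WT, Aebp2, Jarid2, Phf19, Ezh2 and Suz12 were higher in mTEChi and Phf1, Ezh1 and Mtf2 lower, 8 of 10 genes against 70.3% of all genes (5 higher against 37.2% and 3 lower against 33.1%). Most genes of any kind thus differed between these fractions. The PRC2.2 gene Aebp2 had the largest difference of the 10, with 502 to 634 (median 538, n = 7) CPM in mTEChi and 172 to 203 (median 188, n = 8) in mTEClo, 1.56 (SE 0.067, adjusted p = 7.6e-18) on the log2 scale in edgeR. Jarid2 was 299 to 340.0 (median 315, n = 7) and 188 to 207 (median 198, n = 8) (0.67, SE 0.069, adjusted p = 1e-09). Neither overlapped between the fractions. The PRC2.1 gene Mtf2 was 48.4 to 74.4 (median 60.5, n = 7) in mTEChi and 83.3 to 107 (median 88.0, n = 8) in mTEClo, lower in every mTEChi library (-0.62, SE 0.13, adjusted p = 7.7e-05).

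The catalytic subunits went in opposite directions. Ezh2 was 52.6 to 73.1 (median 62.0, n = 7) CPM in mTEChi and 42.7 to 54.9 (median 50.0, n = 8) in mTEClo (0.37, SE 0.086, adjusted p = 0.00032), overlapping at the edge. Ezh1 was 81.6 to 94.3 (median 89.1, n = 7) and 132 to 147 (median 137, n = 8) (-0.64, SE 0.060, adjusted p = 1.9e-10, edgeR), with every mTEChi library below every mTEClo library. Eed was 23.7 to 44.9 (median 38.1, n = 7) and 27.3 to 39.4 (median 36.0, n = 8), with a log2 fold change of -0.0089 and a 95% confidence interval of -0.25 to 0.24. Rbbp4 had -0.13 (SE 0.12, adjusted p = 0.31) and did not pass. Suz12 was 68.6 to 95.8 (median 89.9, n = 7) in mTEChi and 64.3 to 81.2 (median 77.5, n = 8) in mTEClo, and its small difference (0.20, SE 0.091, adjusted p = 0.048) lost the call with no filter on low counts (0.18, adjusted p = 0.12) and without any of 12 of the 15 libraries, with log2 fold changes of 0.14 to 0.25. The exceptions were mTEClo replicate 3 and mTEChi replicates 6 and 7. Phf19 (8.75 to 16.3, median 10.9, n = 7 and 4.37 to 9.38, median 7.53, n = 8, 0.66, SE 0.19, adjusted p = 0.0026) and Phf1 (3.82 to 9.58, median 5.46, n = 7 and 9.38 to 14.4, median 11.8, n = 8, -0.85, SE 0.24, adjusted p = 0.0028) had low counts and went in opposite directions. Of the 16 cell division genes, 13 were higher in mTEChi (median log2 fold change 1.22, beside 37.2% of all genes higher), as were 6 thymocyte and 6 myeloid markers, whose sums were 111 to 136 and 269 to 323 CPM in mTEChi and 29.3 to 39.9 and 27.1 to 60.5 in mTEClo. Their part in the PRC2 values was not tested.

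In adult AireKO, 7 of 10 genes passed against 57.9% of all genes (4 higher against 27.8% and 3 lower against 30.1%), with Phf19 (1.76), Aebp2 (1.75), Jarid2 (0.83) and Ezh2 (0.74) higher and Mtf2 (-1.28), Ezh1 (-0.59) and Rbbp4 (-0.38) lower in mTEChi. Among libraries without mitochondrial counts only, 4 mTEChi against 2 mTEClo, Aebp2 was 1.88 (adjusted p = 7e-08), Phf19 2.29 (adjusted p = 8.6e-06), Jarid2 1.06 (adjusted p = 7.8e-06), Ezh2 0.87 (adjusted p = 0.00034), Mtf2 -1.50 (adjusted p = 5.8e-05) and Ezh1 -0.64 (adjusted p = 0.0009), which kept their directions and calls. Rbbp4 turned to 0.12 (adjusted p = 0.46). Its pooled call was also lost with RLE size factors (-0.32, adjusted p = 0.093), in DESeq2 (-0.33, adjusted p = 0.088), with the replicate number as a block (log2 fold change -0.35, adjusted p = 0.08) and without any of 6 of the 8 libraries, with -0.52 to -0.20 and the lowest size without mTEClo replicate 2. The other 5 were mTEClo replicate 1 and all 4 mTEChi replicates.

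In neonatal Ctrl, 3 of 10 genes passed between the fractions against 37.4% of all genes (2 higher against 19.3% and 1 lower against 18%). Aebp2 (498, 495, 369, 355 and 373 CPM in mTEChi, 303, 309.6 and 296 in mTEClo, 0.46, SE 0.13, adjusted p = 0.011) and Ezh2 (93.2, 86.5, 73.7, 73.6 and 71.1 and 63.0, 53.2 and 63.1, 0.41, SE 0.15, adjusted p = 0.039) were higher and Mtf2 (83.7, 76.8, 67.4, 69.7 and 62.0 and 92.8, 95.3 and 115, -0.49, SE 0.13, adjusted p = 0.0054) lower in mTEChi, by edgeR. The mTEChi libraries were from days 1 to 6 and the mTEClo libraries from days 1 to 3. The Ezh2 call was lost with age as a factor (0.36, adjusted p = 0.088) and with the replicate number as a block (0.45, adjusted p = 0.056). It was also lost without any of 4 single libraries (mTEClo replicates 1 and 2 and mTEChi replicates 1 and 2, with 0.35, adjusted p = 0.15 without mTEClo replicate 2), and the Mtf2 call without mTEClo replicate 3 (-0.34, adjusted p = 0.096). Jarid2 was 314, 316, 342, 343 and 353 in mTEChi and 289, 281 and 219.9 in mTEClo (0.34, SE 0.14, adjusted p = 0.052) and passed in DESeq2 (0.40, adjusted p = 0.018), with a stricter or no filter (adjusted p = 0.032 and 0.043), and under both other scalings (adjusted p = 0.028 and 0.024). It also passed without mTEClo replicate 1 (0.43, adjusted p = 0.048) or mTEChi replicate 1 (0.38, adjusted p = 0.05). Ezh1 did not pass (-0.16, SE 0.16, adjusted p = 0.45). Of the cell division genes, none was higher and 2 of 16 were lower in neonatal mTEChi (median -0.27), beside 19.3% and 18% of all genes, and the difference from the adult table, which was fitted apart, was not tested. Cortical epithelial genes summed to 412 to 891 CPM in mTEChi Ctrl and 1988 to 3032 in mTEClo Ctrl. Myeloid genes summed to 273 to 302 and 83.7 to 146, and thymocyte genes to 106 to 141 and 33.5 to 47.7. Aire was 460.1 to 801 CPM in mTEChi Ctrl and 322 to 330 in mTEClo Ctrl. The part of these differences in the PRC2 values was not tested.

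Without EED, Aebp2 and Jarid2 were again higher in mTEChi. In EEDcKO, 6 of 10 genes passed against 38% (2 higher against 19.4% and 4 lower against 18.5%), with Jarid2 (0.70) and Aebp2 (0.41) higher and Phf1 (-0.96), Mtf2 (-0.70), Phf19 (-0.58) and Ezh1 (-0.50) lower. The call of Phf19 was lost in DESeq2 (-0.49, adjusted p = 0.079), under each other scaling and filter and with the replicate block. That of Ezh1 was lost with library size alone (-0.47, adjusted p = 0.055), no filter (-0.43, adjusted p = 0.095) and the block (-0.46, adjusted p = 0.06), and that of Phf1 with no filter (-0.88, adjusted p = 0.085). Left-out libraries decided the calls of Aebp2 (0.26, adjusted p = 0.18 without mTEChi replicate 1), Phf1 (-0.81, adjusted p = 0.065 without mTEChi replicate 2), Ezh1 (-0.38, adjusted p = 0.14 without mTEChi replicate 3, lost also without mTEChi replicate 1 or mTEClo replicate 3) and Phf19 (-0.40, adjusted p = 0.16 without mTEChi replicate 1, lost also without mTEChi replicate 3 or mTEClo replicate 2 or 4). Ezh2 passed as lower without mTEClo replicate 3 (-0.41, adjusted p = 0.041). In AireEEDdKO, 4 of 10 passed against 39.2% (2 higher against 18.9% and 2 lower against 20.2%), with Jarid2 (0.77) and Aebp2 (0.64) higher and Phf1 (-1.28) and Ezh1 (-0.76) lower, and no left-out library changed these 4 calls. Aebp2 was thus higher in mTEChi in all 5 genotype and age groups compared, with log2 fold changes from 0.41 to 1.75, and passed in each.

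**Figure D3:**
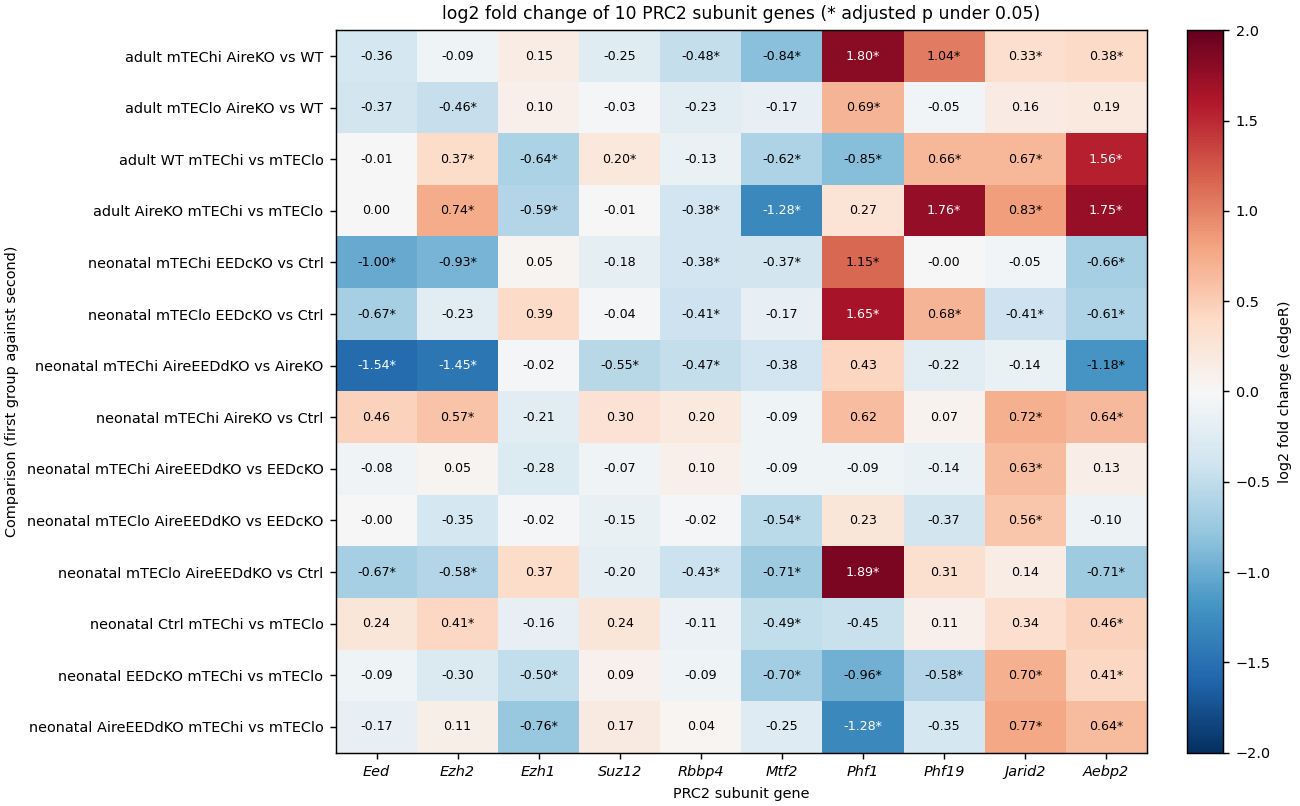
Log2 fold changes of the 10 PRC2 genes in the comparisons of EED loss, Aire loss and fraction, as a grid with 1 row per comparison (first group minus second) and 1 column per gene, colored from blue (lower) to red (higher), with the value printed and a star for an adjusted p under 0.05 in edgeR. Eed, Ezh2 and Aebp2 are blue and starred in both rows of EED loss in mTEChi, and Aebp2 is red and starred in every row of mTEChi against mTEClo.

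The effect of Aire loss differed between the adult fractions in 3 of the 10 genes, against 24.4% of all genes (2 higher against 8.68% and 1 lower against 15.7%). The interaction (the mTEChi effect minus the mTEClo effect, on the log2 scale) was 1.11 (SE 0.36, adjusted p = 0.025) for Phf1, 1.10 (SE 0.32, adjusted p = 0.011) for Phf19 and -0.67 (SE 0.22, adjusted p = 0.026) for Mtf2 in edgeR. For Phf19 no left-out library changed the call (log2 0.92 to 1.37). The Phf1 call was lost without mTEClo AireKO replicate 1 (0.93, adjusted p = 0.053), and the Mtf2 call without any of 8 libraries (log2 -0.81 to -0.44, adjusted p up to 0.14): mTEClo WT replicates 6 and 8, mTEClo AireKO replicates 3 and 4, mTEChi WT replicates 1 and 2 and mTEChi AireKO replicates 1 and 2. With library size alone as the scaling, Phf1 had 0.99, adjusted p = 0.051. With the kind of library as a term, Phf1 had 0.62 (adjusted p = 0.1), Phf19 1.62 (adjusted p = 0.00029) and Mtf2 -0.89 (adjusted p = 0.0024). With it Ezh2 (0.49, adjusted p = 0.026), Jarid2 (0.39, adjusted p = 0.0058) and Aebp2 (0.31, adjusted p = 0.044) passed in addition. Ezh2 had 0.37 (SE 0.15, adjusted p = 0.074) and passed without mTEClo AireKO replicate 2 (0.45, adjusted p = 0.034), mTEChi WT replicates 1 (0.45, adjusted p = 0.027) or 2 (0.41, adjusted p = 0.049) or mTEChi AireKO replicate 1 (0.45, adjusted p = 0.039).

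With the 2-fold minimum that the study's methods used beside the adjusted p, fewer calls were left. Under EED loss these were Eed and Phf1 in mTEChi (2 of 10 against 13.9% of all genes), Phf1 in mTEClo (1 against 15.7%), Eed, Ezh2 and Aebp2 in mTEChi AireEEDdKO against AireKO (3 against 9.47%) and Phf1 in mTEClo AireEEDdKO against Ctrl (1 against 20.6%). Under Aire loss, Phf1 and Phf19 were left in adult mTEChi (2 against 23.4%) and in the adult interaction (2 against 13.8%), and no gene in adult mTEClo (0 against 8.31%) or neonatal mTEChi (0 against 16.4%). Between the fractions, Aebp2 was left in adult WT (1 against 36%), Aebp2, Phf19 and Mtf2 in adult AireKO (3 against 35.3%) and Phf1 in AireEEDdKO (1 against 21%), with none in neonatal Ctrl (0 against 20.7%) or EEDcKO (0 against 21.8%). None was left between AireEEDdKO and EEDcKO in mTEChi (0 against 13.3%) or mTEClo (0 against 5.3%), or in the neonatal interactions of Aire with EED (0 against 1.25%) and of EED with fraction (0 against 1.58%).

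The balance of the alternative subunits is given as a ratio within each library, a description with no test. The log2 ratio of Ezh2 to Ezh1, in CPM per kb of exon, was 0.25 ± 0.33 (SD, n = 5) in neonatal mTEChi Ctrl, 1.03 ± 0.31 (SD, n = 3) in AireKO, -0.74 ± 0.18 (SD, n = 3) in EEDcKO and -0.41 ± 0.16 (SD, n = 3) in AireEEDdKO. In neonatal mTEClo it was -0.33 ± 0.32 (SD, n = 3) in Ctrl, -0.93 ± 0.56 (SD, n = 4) in EEDcKO and -1.31 ± 0.19 (SD, n = 3) in AireEEDdKO. In the adult table it was -0.34 ± 0.24 (SD, n = 7) in mTEChi WT, -0.58 ± 0.077 (SD, n = 4) in mTEChi AireKO, -1.36 ± 0.15 (SD, n = 8) in mTEClo WT and -1.90 ± 0.27 (SD, n = 4) in mTEClo AireKO. No mTEChi EEDcKO library (-0.93 to -0.58) overlapped the Ctrl libraries (-0.013 to 0.64). With the length of the longest transcript in place of all exons, every ratio rose by the same amount, and its sign turned in adult mTEChi WT (0.093), neonatal mTEClo Ctrl (0.11) and mTEChi AireEEDdKO (0.027), so that the ratio orders groups but does not fix which enzyme had more transcripts there.

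The log2 ratio of the summed PRC2.1 genes (Mtf2, Phf1 and Phf19) to the summed PRC2.2 genes (Jarid2 and Aebp2) was below 0 in every group. It was -2.58 ± 0.092 (SD, n = 7) in adult mTEChi WT against -0.91 ± 0.12 (SD, n = 8) in mTEClo WT, and -2.21 ± 0.080 (SD, n = 5) in neonatal mTEChi Ctrl against -1.41 ± 0.26 (SD, n = 3) in mTEClo Ctrl, with no overlap between the fractions in either pair. In mTEClo it was -0.77 ± 0.31 (SD, n = 4) in EEDcKO and -1.41 ± 0.29 (SD, n = 3) in AireEEDdKO. In mTEChi it was -2.06 ± 0.20 (SD, n = 3) in EEDcKO, -2.91 ± 0.26 (SD, n = 3) in AireKO and -2.58 ± 0.35 (SD, n = 3) in AireEEDdKO. In adult mTEClo AireKO it was -1.80 to -0.60 over 4 libraries of both kinds. Among the PRC2.1 genes, Phf19 made up 16.0% ± 5.27 (SD, n = 7) in adult mTEChi WT, 28.1% ± 3.71 (SD, n = 4) in mTEChi AireKO and 6.90% ± 1.33 (SD, n = 8) in mTEClo WT, and 19.9% ± 3.07 (SD, n = 5) in neonatal mTEChi Ctrl. The share of Phf1 within these sums is uncertain, as reads over the exon bases it shares with Cuta may have been left out of its counts.

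**Figure D4:**
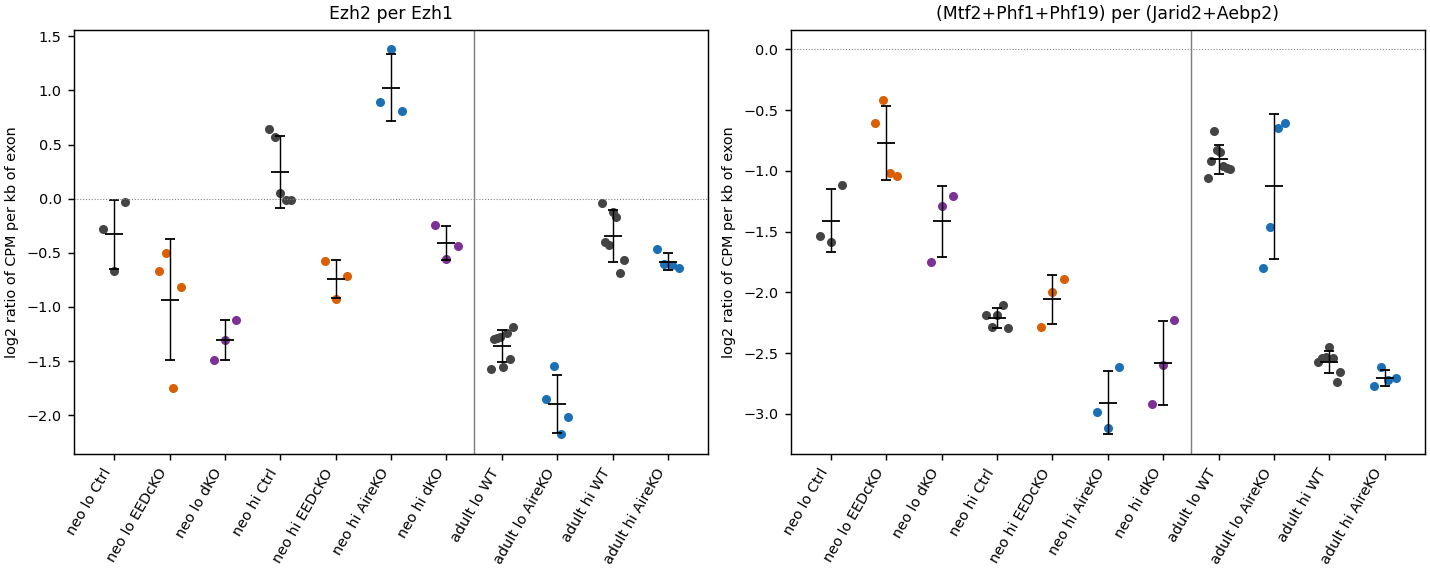
Log2 ratios of Ezh2 to Ezh1 and of the PRC2.1 to the PRC2.2 genes, in CPM per kb of exon, with 1 point per library, a bar at the mean, whiskers of 1 SD and groups on the x axis (hi is mTEChi, lo is mTEClo, dKO is AireEEDdKO). In each pair of control groups the PRC2.1 to PRC2.2 ratio is lower in mTEChi than in mTEClo, and the Ezh2 to Ezh1 ratio falls in mTEChi EEDcKO below all Ctrl libraries.

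Patterns most like those of Eed, Ezh2 and Ezh1 were read from Pearson's r of log2(CPM + 1) over all libraries of a table, which share their groups, depth and age, so that r is a description with no test. Over the 24 neonatal libraries, the genes nearest to Eed outside the set were Rbbp7 (0.914), Vdac1 (0.902) and Rap1gds1 (0.894), those nearest to Ezh2 were Creb1 (0.915), Diaph2 (0.914) and Ahctf1 (0.907) and those nearest to Ezh1 were Slc25a28 (0.900), Cyp2j9 (0.895) and Ovol2 (0.888). Over the 23 adult libraries they were Elf1 (0.894), Mnat1 (0.892) and Cul2 (0.891) for Eed, Birc2 (0.935), Gfpt1 (0.931) and Cebpg (0.925) for Ezh2 and Tmem245 (0.973), Gm15740 (0.970) and Mov10 (0.970) for Ezh1.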

How the data were processed

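RNA was measured by RamDA-seq, a random-primed full-length method, in 47 libraries of sorted mouse mTECs. The authors trimmed reads with fastp, aligned them to mm10 with STAR, removed reads with a mapping quality below 5 and duplicates (Picard 2.21.1), and counted reads per Ensembl gene with HTSeq 0.11.2 without regard to strand. The deposited raw counts per gene were used. The annotation release is not given in the sources used here. Normalized tables were deposited too and were not used. Symbols and exon lengths came from a GENCODE annotation of GRCm38.

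Counts were fitted per table with all groups in edgeR 4.0.16 (R 4.3.3, limma 3.58.1) after filtering by expression (filterByExpr) and scaling by the trimmed mean of M values. The quasi-likelihood test was used with Benjamini-Hochberg adjustment over all genes of a table, and a gene passed at an adjusted p below 0.05. CPM per kb divides by the union of exon lengths. The scripts were tested on simulated data.

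The 10 genes were the stated subunits, and the genes, lists and tests were chosen with earlier results of these data known. From the related list, up to 3 genes with the largest change among those passing were named per comparison, plus their values elsewhere, and of the cell division list Mki67 and Top2a were named. Cuta and Sync were named as overlapping neighbors. Alternatives were other scalings (RLE factors or library size alone), other filters on low counts, DESeq2 1.42.0, age or the replicate number as a factor, a 2-fold minimum, libraries of 1 kind, and leaving out each library.

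Replicate numbers come from the labels and mark no stated pairing. Same-numbered libraries deviated together (every correlation over 0.1) in adult AireKO mTEChi and mTEClo (0.139 to 0.222), neonatal mTEChi AireEEDdKO and AireKO (0.108 to 0.213) and neonatal AireEEDdKO mTEChi and mTEClo (0.291 to 0.416), and not in the other comparisons. All values given are from fits without the replicate number unless a block is named.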

Additional observations from a re-analysis of the deposited data

Results flagged for a closer look

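The effect of Aire loss differed between adult mTEChi and mTEClo by a test of the difference itself for Mtf2 (-0.67), Phf1 (1.11) and Phf19 (1.10), on the log2 scale as the mTEChi effect minus the mTEClo effect (edgeR, adjusted p = 0.026, 0.025 and 0.011). For Mtf2 the AireKO minus WT log2 fold change was -0.84 in mTEChi and -0.17 in mTEClo, for Phf1 1.80 and 0.69, and for Phf19 1.04 and -0.052. With a term for the kind of library, added after the data were seen, the differences were -0.89 (adjusted p = 0.0024) for Mtf2, 0.62 (adjusted p = 0.1) for Phf1 and 1.62 (adjusted p = 0.00029) for Phf19, so that Phf1 no longer passed. No library stood apart from the rest of its group, by the gap to its nearest neighbor, in any of the 60 sets of 4 to 8 values of a PRC2 gene tested.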

How the results depend on the processing

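The counts of passing genes are given in the order adult mTEChi AireKO against WT, mTEClo AireKO against WT, WT and AireKO mTEChi against mTEClo, and Aire by fraction interaction. They were 6, 2, 8, 7 and 3. With a 2-fold minimum they were 2, 0, 1, 3 and 2, with the replicate number as a block 8, 2, 8, 6 and 3, and with 1 library left out 6 to 8, 1 to 3, 7 to 8, 6 to 7 and 2 to 4. In mTEClo AireKO against WT, 4 passed with age as a factor, 1 with DESeq2 and 4 with only libraries that have mitochondrial counts. Of all genes, 3887, 4853 and 4190 passed in these fits, in that order, and 4841 in the main fit. In the interaction, 5 passed with the kind of library as a term, where 5249 of all genes passed, against 4708 in the main fit. For the replicate block and the left-out libraries, here and in the neonatal counts below, the share of all genes is not given. Those counts thus do not set the 10 genes apart.

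Neonatal counts are in the order mTEChi EEDcKO and mTEClo EEDcKO against Ctrl, mTEChi AireEEDdKO against AireKO, mTEChi AireKO against Ctrl, AireEEDdKO against EEDcKO in mTEChi and in mTEClo, mTEClo AireEEDdKO against Ctrl, mTEChi against mTEClo in Ctrl, EEDcKO and AireEEDdKO, and the Aire by EED and EED by fraction interactions. They were 6, 6, 5, 3, 1, 2, 6, 3, 6, 4, 0 and 0, with a 2-fold minimum 2, 1, 3, 0, 0, 0, 1, 0, 0, 1, 0 and 0, with the replicate block 6, 6, 5, 3, 1, 2, 6, 2, 4, 4, 0 and 0, and with 1 library left out 5 to 6, 4 to 6, 4 to 5, 2 to 4, 1 to 1, 0 to 3, 4 to 6, 2 to 3, 3 to 6, 4 to 4, 0 to 0 and 0 to 1. In mTEClo AireEEDdKO against EEDcKO, 1 passed with no filter on low counts and 0 with age as a factor. Of all genes, 2026 and 1125 passed in these fits and 1619 in the main fit. In EEDcKO mTEChi against mTEClo, 3 passed with no filter, where 7015 of all genes passed, against 7667 in the main fit.

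Direction turned for Phf1 in adult mTEClo AireKO (-0.46 with only libraries that have mitochondrial counts and -0.45 with the kind as a term), for Rbbp4 in adult AireKO mTEChi against mTEClo (0.12 with only libraries without mitochondrial counts and 0.11 with the term) and for Rbbp4 in adult mTEChi AireKO (0.42 with the term). The cause was not tested. No value of a PRC2 gene changed direction under the other settings for a call that had passed. The replicate block lost the calls of Phf1 in adult mTEClo AireKO (adjusted p = 0.11), Rbbp4 in adult AireKO mTEChi against mTEClo (0.08), Ezh2 in neonatal Ctrl (0.056) and Ezh1 and Phf19 in neonatal EEDcKO mTEChi against mTEClo (0.06 and 0.064), and gained those of Eed and Suz12 in adult mTEChi AireKO (0.044 and 0.022) and of Eed in adult mTEClo AireKO (0.05), and no other. Of 1670 fits of a gene with 1 library left out, 1574 stayed on their side of the threshold, 76 lost and 20 gained the call, and 0 turned direction. Depth limits the genes unequally, and Phf1 and Phf19 had the largest median standard errors of the 10 genes over the comparisons.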
